A study of Mus musculus with 6 samples.

Results

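The genes described here make the enzymes that hydroxylate and crosslink collagen, with the chaperone that escorts it. They are 10 named genes: the prolyl hydroxylase subunits P4ha1 and P4ha2, the lysyl hydroxylases Plod1, Plod2 and Plod3, the lysyl oxidases Lox, Loxl1, Loxl2 and Loxl3, and Serpinh1. Members were read from probe sets that the platform annotation gives a single symbol, taking the brightest on average where a gene had several. This found 8 of the 10, out of 22180 genes measured in all. Plod3 and Loxl2 were listed only on probe sets shared with another gene and are not analysed here. Each of the 8 genes found had 1 such probe set.

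Whole inguinal mammary glands of C57BL/6J mice aged 4 weeks were profiled on Affymetrix whole-transcript arrays. The wild-type group carried intact Mt1-mmp (+/+), the gene now called Mmp14, which encodes a membrane-anchored protease able to cut fibrillar collagen. The stromal knockout group carried Dermo1Cre with Mt1-mmp (fl/fl). Dermo1 is now called Twist2, and its Cre acts in cells of mesenchymal origin, so the design is meant to delete Mmp14 in the stroma. Other lineages are meant to retain it, and whole-gland arrays do not show in which cells it was lost. No control with Cre alone was among the arrays, so an effect of Cre itself cannot be told apart from the loss of Mmp14. Each group had 3 arrays labelled as biological replicates of littermates. The labels do not say whether each array stands for a single mouse, so p-values measure the spread between these samples.

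Newly made collagen chains are hydroxylated on proline and lysine in the endoplasmic reticulum. Prolyl hydroxylation lets the triple helix hold together at body temperature, and lysyl hydroxylation fixes which crosslinks the fibre can form later. Serpinh1 binds the folded helix on its way out of the cell. Outside the cell, the copper-dependent lysyl oxidases convert lysine and hydroxylysine side chains to aldehydes that join neighbouring molecules. In the mammary gland such fibres surround the ducts and form the scaffold into which the ducts grow.

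Mmp14 checked the labels. It read 11.18, 10.55 and 10.90 log2 units in wild type and 8.57, 8.55 and 8.75 in the knockout, so the groups did not overlap. The labels do not say which exons of Mmp14 its probe set covers. Twist2 read 3.95 to 4.77 in wild type and 3.49 to 4.12 in the knockout, and these ranges overlap. Array medians over all probe sets lay between 3.77 and 3.89. Markers of the tissue were present, with the fat cell gene Fabp4 at 12.67 to 12.88 and the luminal keratin gene Krt18 at 8.65 to 8.83 in wild type and 6.01 to 6.30 in the knockout. Wild type 1 stood apart in skeletal muscle genes, with a mean of 5.89 over 12 markers against 3.44 to 3.99 in the other 5 arrays.

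Of the 8 genes, 5 fell in the stromal knockout and 0 rose. Plod2 fell the most, to 23.3% of its wild-type level. P4ha2, Loxl1, Loxl3 and P4ha1 fell to between 43.8% and 53.3%. Plod1, Lox and Serpinh1 did not pass the test. The test was the moderated linear model of limma, run over all 22180 genes with Benjamini-Hochberg adjustment and a threshold of 0.05. At that threshold 7.20% of all genes were lower in the knockout and 5.05% were higher. The median difference was -0.96 log2 units over the 8 genes and 0.03 over all genes. In 6 of the 8 genes the highest knockout array was below the lowest wild-type array, a pattern seen in 15.4% of all genes. The same 5 genes passed in each of the 14 other ways of fitting the data, including the 6 in which 1 array was left out. In whole tissue, fewer cells of a type and less RNA per cell cannot be told apart. Values below are log2 signals, and n = 3 arrays per group throughout. Differences are knockout minus wild type, and those of single genes carry the standard error of the model. Differences between paralogs or against other genes within arrays carry the plain standard error (SE) from the spread in each group.

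**Figure D1:**
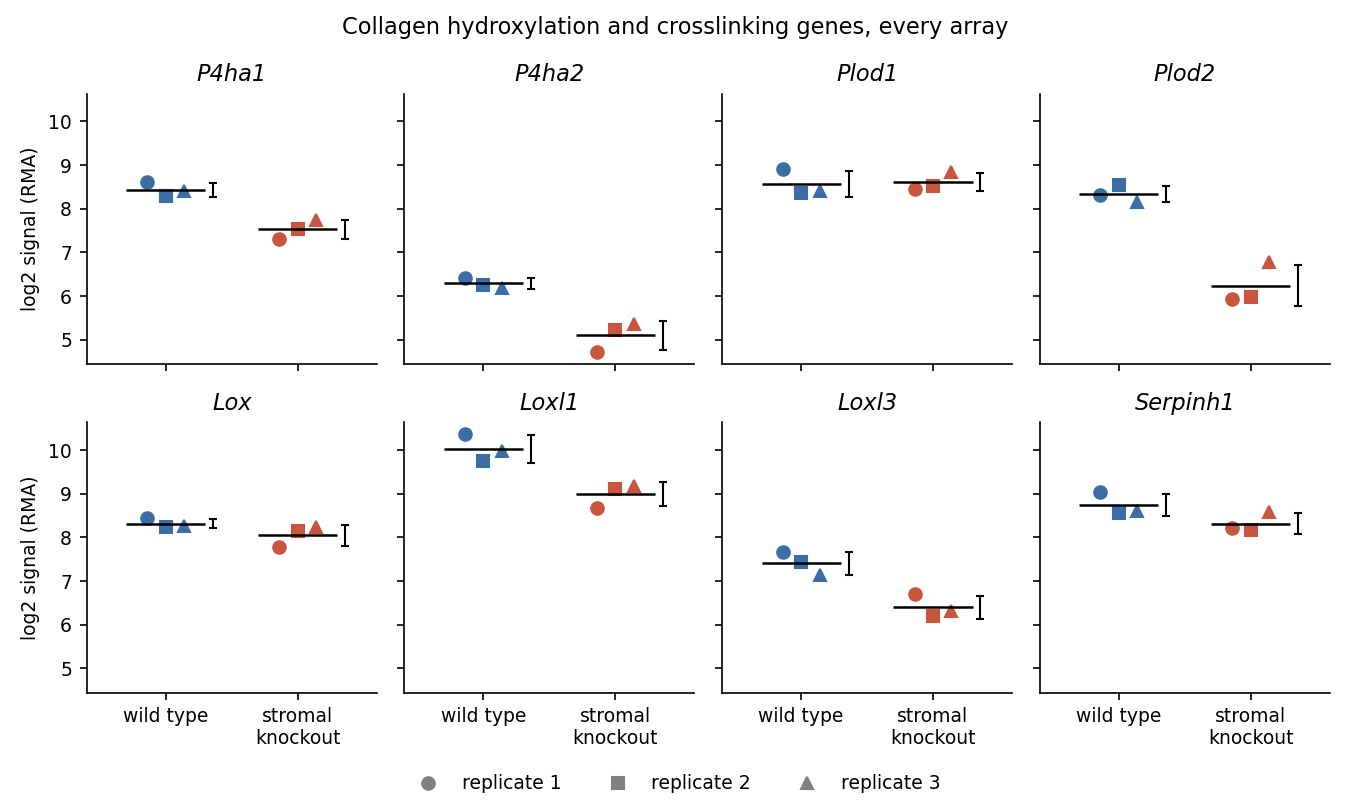
The log2 signal of 8 genes in every array, with wild type in blue and the stromal knockout in red, symbols for replicate numbers, a line at the group mean and a bar of 1 SD. Plod2 shows the widest gap, with wild type at 8.16 to 8.54 and the knockout at 5.94 to 6.78, and the groups of Plod1 overlap; heights are not comparable between genes because each probe set binds with its own strength.

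P4ha1 and P4ha2 encode the catalytic subunits of prolyl hydroxylase, each of which pairs with the shared partner P4hb. P4ha1 read 8.61, 8.30 and 8.40 in wild type and 7.30, 7.54 and 7.74 in the knockout. It fell by 0.91 ± 0.15 (limma adjusted p = 0.00895), and the lowest wild-type array lay 0.56 above the highest knockout array. P4ha2 read 6.42, 6.25 and 6.20 in wild type and 4.72, 5.21 and 5.36 in the knockout. It fell by 1.19 ± 0.18 (limma adjusted p = 0.00607), with a gap of 0.83 between the groups. In both genes the wild-type arrays lay close together, within 0.31 for P4ha1 and 0.23 for P4ha2, and the knockout arrays were more spread, within 0.44 and 0.64.

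The promoters of these genes are shown because P4ha1 and P4ha2 moved together while Plod1 and Serpinh1 did not pass, and because P4ha1, P4ha2, Plod2 and Lox are known targets of hypoxia-inducible factors. RefSeq promoter sequences on GRCm38.p6 were matched by symbol for 5 of the 10 genes. The 250 bases before the annotated start are printed 5′ to 3′ on the gene's strand for 4 of them. Capitals mark each copy of ACGTG or GCGTG, the core of the hypoxia response element, on either strand, where the other strand reads CACGT or CACGC.
P4ha1 (chr10:59323046-59323295, plus strand): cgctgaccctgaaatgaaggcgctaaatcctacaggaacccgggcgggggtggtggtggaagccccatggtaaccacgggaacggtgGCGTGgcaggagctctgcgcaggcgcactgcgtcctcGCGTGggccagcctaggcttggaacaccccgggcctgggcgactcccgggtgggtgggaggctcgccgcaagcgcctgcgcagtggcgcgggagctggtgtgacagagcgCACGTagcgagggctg
P4ha2 (chr11:54100674-54100923, plus strand): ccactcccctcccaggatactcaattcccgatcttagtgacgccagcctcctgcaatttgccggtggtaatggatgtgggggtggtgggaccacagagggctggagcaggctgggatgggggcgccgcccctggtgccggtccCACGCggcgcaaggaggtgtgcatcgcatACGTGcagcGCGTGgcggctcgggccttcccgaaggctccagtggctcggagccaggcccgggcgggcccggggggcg
Plod1 (chr4:147936777-147937026, minus strand): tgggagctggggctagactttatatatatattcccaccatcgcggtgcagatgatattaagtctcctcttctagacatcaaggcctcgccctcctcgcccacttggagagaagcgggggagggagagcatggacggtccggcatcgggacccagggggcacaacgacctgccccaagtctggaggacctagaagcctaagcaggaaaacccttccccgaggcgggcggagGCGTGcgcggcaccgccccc
Serpinh1 (chr7:99353240-99353489, minus strand): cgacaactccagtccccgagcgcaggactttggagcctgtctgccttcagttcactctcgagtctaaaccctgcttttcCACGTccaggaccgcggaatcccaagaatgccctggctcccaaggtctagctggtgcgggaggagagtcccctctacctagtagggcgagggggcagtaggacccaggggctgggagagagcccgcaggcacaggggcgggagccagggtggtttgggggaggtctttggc
P4ha1 and P4ha2 each held 3 copies of the core in this window, and Plod1 and Serpinh1 each held 1. The window of Plod3, a gene with no value here, held 4. At least 1 copy stood in all 5 of these windows and in 38.6% of all 32851 promoter windows of this length, so the letters alone are common. The share of windows with 3 copies was not counted. No window was matched for Plod2, Lox, Loxl1, Loxl2 or Loxl3, so the number of copies cannot be set against the falls. The 4 printed windows were rich in G and C, at 61.6% to 70.0%. The heat shock element GAANNTTC, searched on both strands because heat shock factor is known to drive Serpinh1, was in 0 of the 5 windows and in 6.69% of all windows. A match is a description of the letters and not of binding, and the lack of one says only that these letters are not in this window.

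The lysyl hydroxylases differed from each other. Plod2, which modifies the lysines at the chain ends that later form the most stable crosslinks, read 8.31, 8.54 and 8.16 in wild type and 5.94, 5.99 and 6.78 in the knockout. It fell by 2.10 ± 0.23 (4.29-fold, limma adjusted p = 0.00186). Only 112 of the 22180 genes had a more negative difference. Knockout 3 lay 0.79 above the next knockout array and still 1.38 under the lowest wild-type array. Plod1, which acts mainly on lysines within the helix, read 8.91, 8.37 and 8.41 in wild type and 8.46, 8.52 and 8.85 in the knockout. Its groups overlapped over most of their range. The difference was +0.04 ± 0.18 with a 95% interval of -0.38 to 0.47 (limma adjusted p = 0.906), and it took either sign when single arrays were left out.

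Among the lysyl oxidases, Loxl1, which is needed for elastic fibres, read 10.36, 9.74 and 9.97 in wild type and 8.68, 9.10 and 9.19 in the knockout. It fell by 1.04 ± 0.20 (2.05-fold, limma adjusted p = 0.0149). Loxl3 read 7.66, 7.43 and 7.14 in wild type and 6.70, 6.20 and 6.30 in the knockout. It fell by 1.01 ± 0.19 (2.01-fold, limma adjusted p = 0.0124). The groups of both genes were apart, by 0.56 for Loxl1 and 0.44 for Loxl3. Lox, the founding member of the family, read 8.43, 8.24 and 8.27 in wild type and 7.77, 8.14 and 8.23 in the knockout. The highest knockout array lay just under the lowest wild-type array. Its difference of -0.26 ± 0.15 did not pass, with a 95% interval of -0.61 to 0.09 (limma adjusted p = 0.320).

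Serpinh1, the collagen-specific chaperone, read 9.03, 8.57 and 8.61 in wild type and 8.21, 8.16 and 8.59 in the knockout. Knockout 3 lay within the wild-type range, so the groups overlapped. The difference was -0.42 ± 0.18 with a 95% interval of -0.83 to -0.01 before adjustment, and it did not pass over all genes (limma adjusted p = 0.178).

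The arrays of 1 group were ordered alike across most of these genes. Wild type 1 was the highest wild-type array for 7 of the 8 genes, with Plod2 as the exception, and it is the array with the high muscle markers. Knockout 3 was the highest knockout array for 7 of the 8, with Loxl3 as the exception, and knockout 1 was the lowest for 6. The mean of 13 luminal epithelial markers was 5.70 in knockout 3 against 5.52 and 5.41 in the other knockout arrays, and the mean of 10 endothelial markers was 8.45 against 8.03 and 8.24. Over 13 fibroblast markers knockout 3 lay at 8.91, against 8.87 and 8.88. It also had the highest knockout mean of basal epithelial, macrophage, thermogenic adipocyte and lymphocyte markers, but not of white adipocyte or skeletal muscle markers. The part of these markers in the order of the arrays was not tested. Without wild type 1 the differences were -2.11 for Plod2, -1.12 for P4ha2, -0.88 for Loxl3, -0.87 for Loxl1 and -0.82 for P4ha1, and all 5 passed, with limma adjusted p between 0.0124 and 0.0480.

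Paralogs were then compared within each array, which shows whether members of a family changed unequally. With Plod3 and Loxl2 left out, 5 of 10 possible pairs remained. For each, all ways of dividing the 6 arrays into groups of 3 were enumerated (exact permutation, two-sided), a test that cannot give less than 0.1, and p-values were adjusted over the 5 pairs. Plod2 fell behind Plod1 by 2.15 ± 0.27 log2 units (SE), and Plod2 minus Plod1, with the wild-type mean set to 0, was -0.37, 0.40 and -0.02 in wild type and -2.28, -2.31 and -1.84 in the knockout. The groups did not overlap (exact permutation p = 0.1, adjusted p = 0.167). Loxl1 minus Lox was 0.21, -0.21 and -0.01 in wild type and -0.80, -0.75 and -0.76 in the knockout, again with no overlap, and the same exact p. P4ha2 minus P4ha1 was lower in the knockout by 0.28 ± 0.09, with no overlap and the same exact p. The share of all gene pairs without overlap was not computed. For single genes, the knockout arrays all lay under the wild-type arrays in 15.4% of all genes and all over them in 17.2%. Loxl3 minus Lox differed by -0.74 ± 0.31 with overlapping groups (exact permutation p = 0.2, adjusted p = 0.25). Loxl3 minus Loxl1 differed by 0.03 ± 0.34 (exact permutation p = 1), and the arrays of this pair were widely spread. In that pair knockout 1 lay at 0.63 and the other knockout arrays at -0.29 and -0.26.

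**Figure D2:**
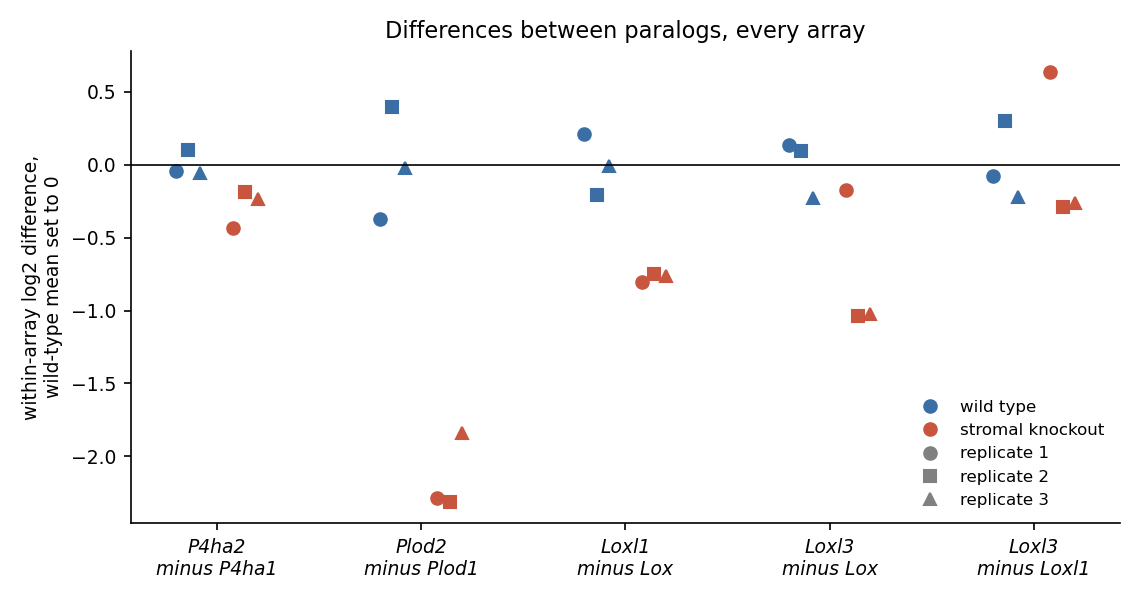
The within-array log2 difference of 5 paralog pairs, with the wild-type mean of each pair set to 0, wild type in blue, the stromal knockout in red and symbols for replicate numbers. Plod2 minus Plod1 lies between -2.31 and -1.84 in the knockout arrays and Loxl1 minus Lox between -0.80 and -0.75, under every wild-type array, whereas the groups of Loxl3 minus Lox and of Loxl3 minus Loxl1 overlap.

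The enzymes were also set against their substrate and against fibroblast markers in the same arrays. Type I collagen is made of the Col1a1 and Col1a2 chains and type III of Col3a1, and these are the main fibrillar collagens of soft tissue. Col1a1 differed by -0.27 ± 0.16 (limma adjusted p = 0.344), Col1a2 by -0.57 ± 0.17 (0.0732) and Col3a1 by -0.55 ± 0.18 (0.0877), and none passed. Col1a2 did pass in 6 of 14 alternatives, with a lowest limma adjusted p of 0.0199, and Col3a1 in 4, with a lowest of 0.0262, so their place beside the threshold depends on the fit. Among these, without wild type 2, Col1a2 lay at -0.73 (limma adjusted p = 0.0349) and Col3a1 at -0.71 (0.0404). The mean of the 3 chains was 11.82, 11.25 and 11.62 in wild type and 10.97, 11.08 and 11.25 in the knockout, so the groups overlapped, with a difference of -0.46. Taken against this mean, P4ha1, P4ha2, Plod2 and Loxl1 were still lower in the knockout without overlap, with differences of -0.44, -0.73, -1.64 and -0.57 log2 units. Plod1 lay the other way, at +0.51 ± 0.11 against the collagen mean and without overlap, while measured alone it differed by +0.04. Each of these 5 genes had the minimum exact permutation p of 0.1 (two-sided), or 0.16 when adjusted over the 8 genes. The share of all genes without overlap against this mean was not computed. For signals alone, the knockout arrays all lay under the wild-type arrays in 15.4% of all genes and all over them in 17.2%. Loxl3 differed by -0.55 ± 0.29, Lox by +0.20 ± 0.14 and Serpinh1 by +0.04 ± 0.12, all with overlapping groups.

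The mean of Pdgfra, Pdgfrb, Dcn and Lum, genes of fibroblasts, was 10.74, 10.50 and 10.70 in wild type and 10.02, 9.98 and 10.08 in the knockout. This mean differed by -0.62 (exact permutation p = 0.1). These 4 genes are part of the 13 measured fibroblast markers. The mean of all 13 was 9.57 to 9.75 in wild type and 8.87 to 8.91 in the knockout. The 8 genes were not tested against all 13, so the separations here are stated for the 4 markers only. Against the mean of the 4, Plod2 differed by -1.48 ± 0.30, P4ha2 by -0.57 ± 0.20, Loxl1 by -0.41 ± 0.19 and P4ha1 by -0.28 ± 0.12, all without overlap. Plod1 differed by +0.67 ± 0.17 and Lox by +0.36 ± 0.15, also without overlap, while measured alone they differed by +0.04 and -0.26. Loxl3 differed by -0.39 ± 0.22 and Serpinh1 by +0.20 ± 0.15, both with overlapping groups (exact permutation p = 0.2 and 0.3). The 6 genes without overlap had an exact permutation p of 0.1, or 0.133 adjusted over the 8 genes. The share of all genes without overlap was not computed for this mean either. Knockout 1 was the array farthest below for all of P4ha1, P4ha2, Loxl1 and Plod2. Without it, P4ha1, P4ha2 and Loxl1 lay at -0.17, -0.38 and -0.26 against the 4 markers. For Plod2 knockout 1 lay at -1.77, with the wild-type mean set to 0, against -1.68 and -0.99 in the other knockout arrays.

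**Figure D3:**
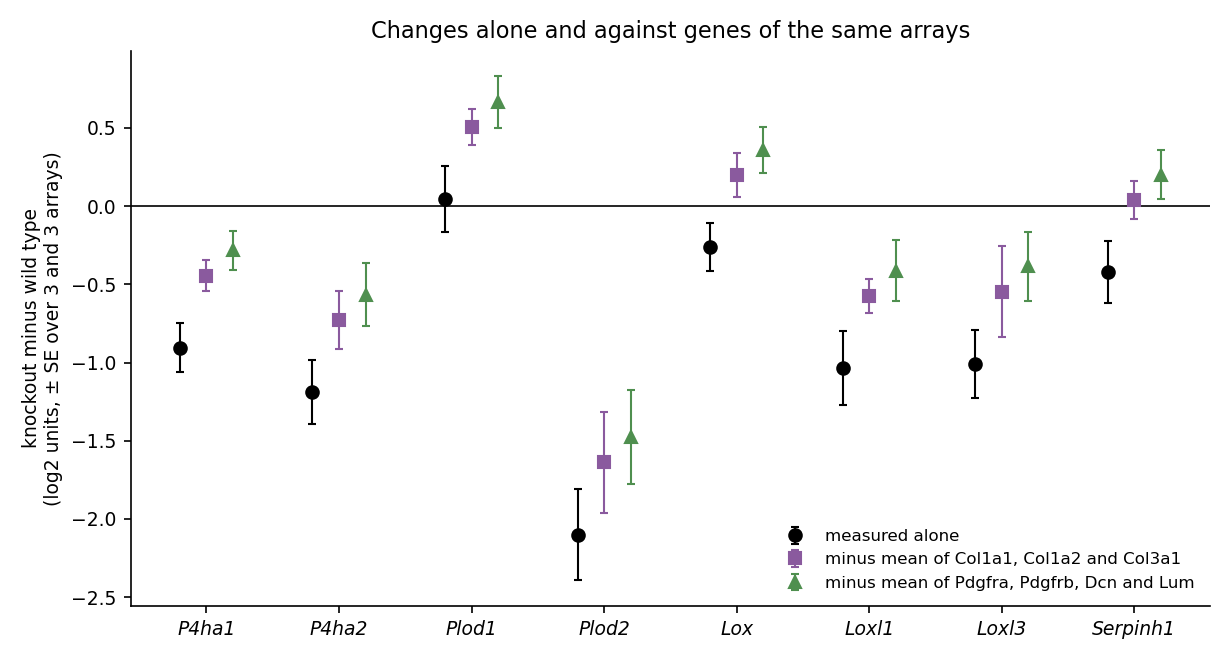
Knockout minus wild type for 8 genes, measured alone (black circles), after subtracting the mean of Col1a1, Col1a2 and Col3a1 in each array (purple squares) and after subtracting the mean of Pdgfra, Pdgfrb, Dcn and Lum (green triangles), with bars of 1 SE over 3 and 3 arrays. Plod2 stays lowest on all scales, from -2.10 alone to -1.48 against fibroblast markers, while Plod1 moves from 0.04 to 0.51 and 0.67.

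Other genes that modify, fold, export or process collagen were taken from a list of 28, of which 26 were measured. Of these, 9 fell and 1 rose, against 7.20% and 5.05% of all genes, with a median of -0.32. The largest falls were those of P4ha3, a further catalytic subunit of prolyl hydroxylase, Adamts3, a procollagen peptidase, and Tgm2, a transglutaminase that crosslinks matrix proteins. P4ha3 read 6.60, 7.18 and 6.21 in wild type and 5.12, 4.41 and 3.64 in the knockout and fell by 2.28 ± 0.38 (4.85-fold, limma adjusted p = 0.00882). All 3 catalytic subunits of prolyl hydroxylase thus lay lower. Their partner P4hb differed by -0.21 ± 0.12 and did not pass (limma adjusted p = 0.291). Its knockout arrays also all lay under its wild-type arrays, by 0.06, a pattern seen in 15.4% of all genes. Adamts3 fell by 1.75 ± 0.18 (3.36-fold, limma adjusted p = 0.00122) and Tgm2 by 1.21 ± 0.12 (2.32-fold, limma adjusted p = 0.00104). Mia2 also passed, but both of its group means, 2.46 and 1.29, are below 2.68, a level that 33% of genes do not reach, so the probe set was dim in both groups. Tll1, a protease related to Bmp1, was the 1 gene that rose, by 0.53 ± 0.14 (limma adjusted p = 0.0431), and it lost its call when any 1 of the 6 arrays was left out (adjusted p 0.0594 to 0.121).

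The other 5 genes of that list that fell are named after their values had been seen. Bmp1, which trims procollagen and also releases active lysyl oxidase, fell by 0.91 ± 0.14 (limma adjusted p = 0.00654). Adamts14, another procollagen peptidase, fell by 0.88 ± 0.16, and leaving out wild type 1 ended the call (limma adjusted p = 0.0536). Averaged over its probe sets Adamts14 fell by 0.54 (limma adjusted p = 0.0419). Sec24d, a coat protein of the vesicles that carry procollagen, fell by 0.67 ± 0.12, and Creb3l1, a transcription factor of collagen-secreting cells, fell by 0.65 ± 0.15. P3h2, which hydroxylates proline at another position, fell by 0.65 ± 0.15. Creb3l1 did not pass when wild type 1, wild type 2, knockout 2 or knockout 3 was left out (limma adjusted p 0.0667 to 0.0904), nor P3h2 when any single array but knockout 3 was left out (0.0563 to 0.101). Without wild type 1 the list held 6 falls. The remaining lysyl oxidase measured, Loxl4, read 3.92, 3.98 and 3.96 in wild type and 4.48, 4.50 and 3.97 in the knockout, a difference of +0.36 ± 0.16 (limma adjusted p = 0.201). Knockout 3 lay within the wild-type range, and without it Loxl4 passed at +0.54 (limma adjusted p = 0.0390). Colgalt1, which attaches galactose to the hydroxylysine made by the Plod enzymes, differed by -0.30 ± 0.11 (limma adjusted p = 0.122), and P3h1, Crtap and Ppib, which form a complex of their own on proline, differed by -0.28, -0.19 and -0.18 without passing.

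**Figure D4:**
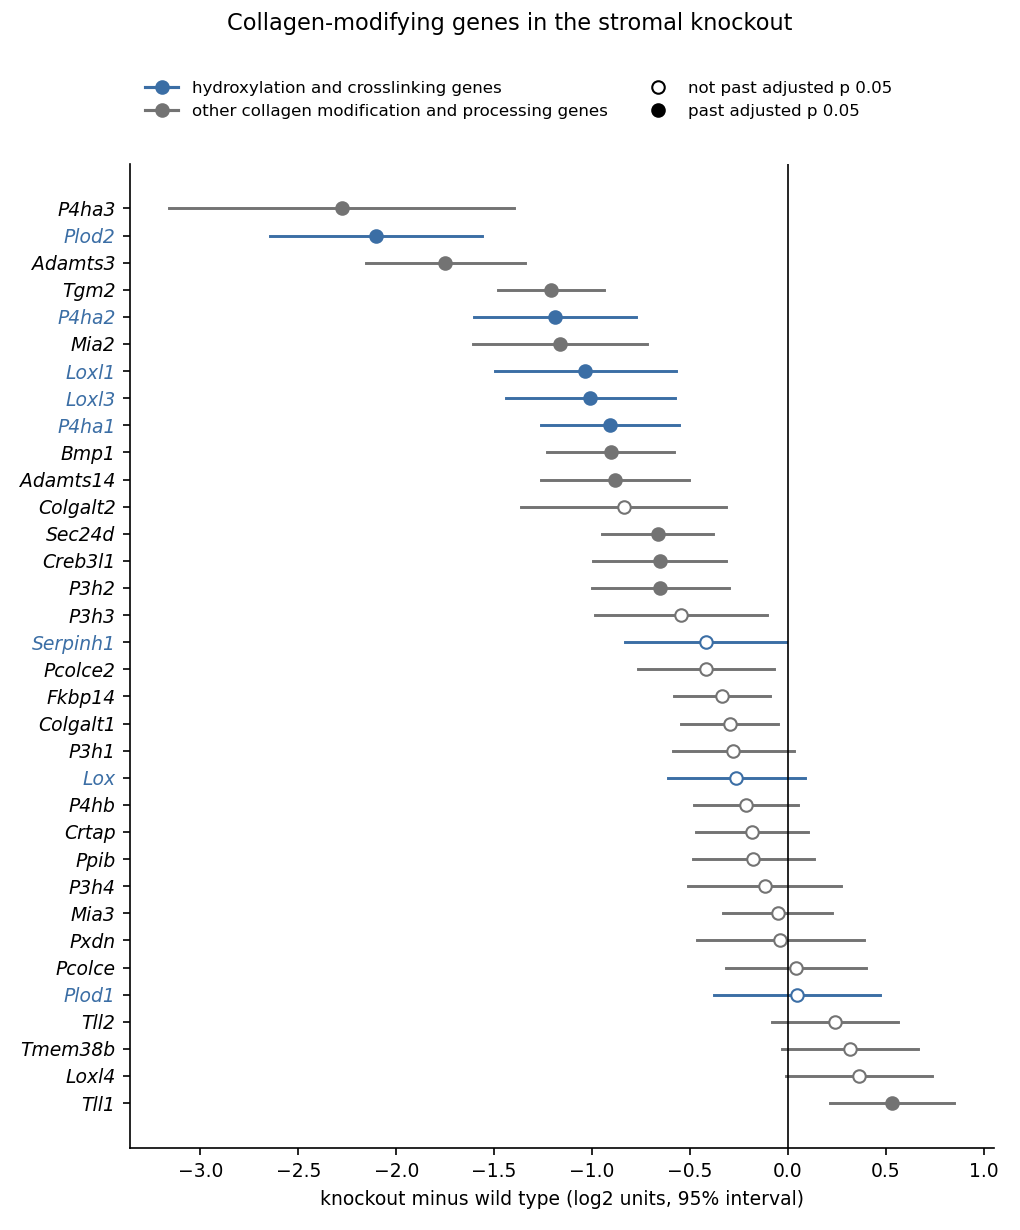
Knockout minus wild type with its 95% interval for the 8 hydroxylation and crosslinking genes (blue) and 26 other genes of collagen modification, folding and processing (grey), with filled circles past a limma adjusted p of 0.05. P4ha3 (-2.28) and Plod2 (-2.10) have the most negative differences, and Tll1 (0.53) is the 1 filled circle above 0.

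Of 16 fibrillar collagens, elastic fibre proteins and other matrix proteins listed as substrates or partners, 14 were measured, 3 fell and 0 rose. Among all genes, 7.20% fell and 5.05% rose. Fibronectin (Fn1) fell by 0.95 ± 0.13 (limma adjusted p = 0.00387), the collagen-binding protein periostin (Postn) by 0.93 ± 0.13 (0.00431) and the type V collagen chain Col5a2 by 0.89 ± 0.15 (0.00864). The list median was -0.56, and the count of falls was 6 without wild type 2 and 8 with a robust intensity trend. Elastin (Eln), the main substrate of Loxl1, differed by -0.11 ± 0.16 (limma adjusted p = 0.714).

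Hypoxia-inducible factors are known to drive P4ha1, P4ha2, Plod2 and Lox, so other targets of these factors were read in the same arrays. Of 17 measured targets, 4 rose and 0 fell, against 5.05% and 7.20% of all genes, with a median of 0.12. Ddit4, an inhibitor of growth signalling, rose by 1.11 ± 0.20 (limma adjusted p = 0.0113), the mitophagy gene Bnip3 by 1.04 ± 0.18 (0.00907), the angiogenic factor Vegfa by 0.73 ± 0.11 (0.00519) and the glycolytic enzyme Pgk1 by 0.43 ± 0.11 (0.0491). Pgk1 lost its call when any 1 array was left out (limma adjusted p 0.0715 to 0.141). With each array centred on its median, 7 of the targets rose. That setting moved the median over all genes from 0.03 to 0.22 and the genes called higher from 1121 to 3155.

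Transforming growth factor beta is a known inducer of collagen-modifying enzymes. Of 12 measured ligands and targets of that pathway, 7 fell and 0 rose, against 7.20% and 5.05% of all genes. Their median was -0.54. The largest falls were in the ligand Tgfb3, by 1.24 ± 0.16 (limma adjusted p = 0.00352), the feedback regulators Pmepa1, by 1.01 ± 0.22 (0.0239), and Skil, by 0.98 ± 0.20 (0.0196), and smooth muscle actin (Acta2), by 0.77 ± 0.13 (0.0102). The count of falls was 2 without any 1 wild-type array, 3 without knockout 1 or knockout 2, and 4 with arrays centred on their medians. Pmepa1 did not pass when any single array but knockout 3 was left out (limma adjusted p 0.0626 to 0.0878), and Skil without any 1 wild-type array (0.0591 to 0.0678).

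Most marker lists of cell types in the gland differed between the groups. Beside the counts below, 7.20% of all genes fell and 5.05% rose. Of 13 fibroblast markers 9 fell, with a median of -0.69 and list means of 9.57 to 9.75 in wild type and 8.87 to 8.91 in the knockout. All 13 measured luminal epithelial markers fell, with a median of -2.16 and list means of 7.62 to 7.84 against 5.41 to 5.70. Of 7 basal epithelial markers 5 fell, with a median of -1.93 and list means of 6.56 to 6.92 against 4.87 to 5.25. Of 8 macrophage markers 5 fell, with a median of -0.69 and list means of 8.46 to 8.84 against 7.81 to 8.02. Of 8 thermogenic adipocyte markers 5 rose, with list means of 5.84 to 7.33 against 7.78 to 8.44, while Elovl3 and Dio2 lay at -0.67 and -0.65 without passing. Of 9 white adipocyte markers 3 rose, with list means of 10.99 to 11.00 against 11.23 to 11.34, and of 10 endothelial markers 3 rose, with list means of 7.70 to 7.84 against 8.03 to 8.45. Of 7 lymphocyte markers 3 fell, with a median of -0.48 and list means of 4.46 to 4.95 against 4.23 to 4.38, and of 12 skeletal muscle markers 0 were called in the limma test and 2 had an unadjusted p under 0.05. The part of these shifts in the differences of the 8 genes was not tested. The median of the 8 genes, -0.96, lay below those of the fibroblast (-0.69), macrophage (-0.69) and skeletal muscle (-0.80) lists. It lay above those of the basal (-1.93) and luminal (-2.16) epithelial lists.

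**Figure D5:**
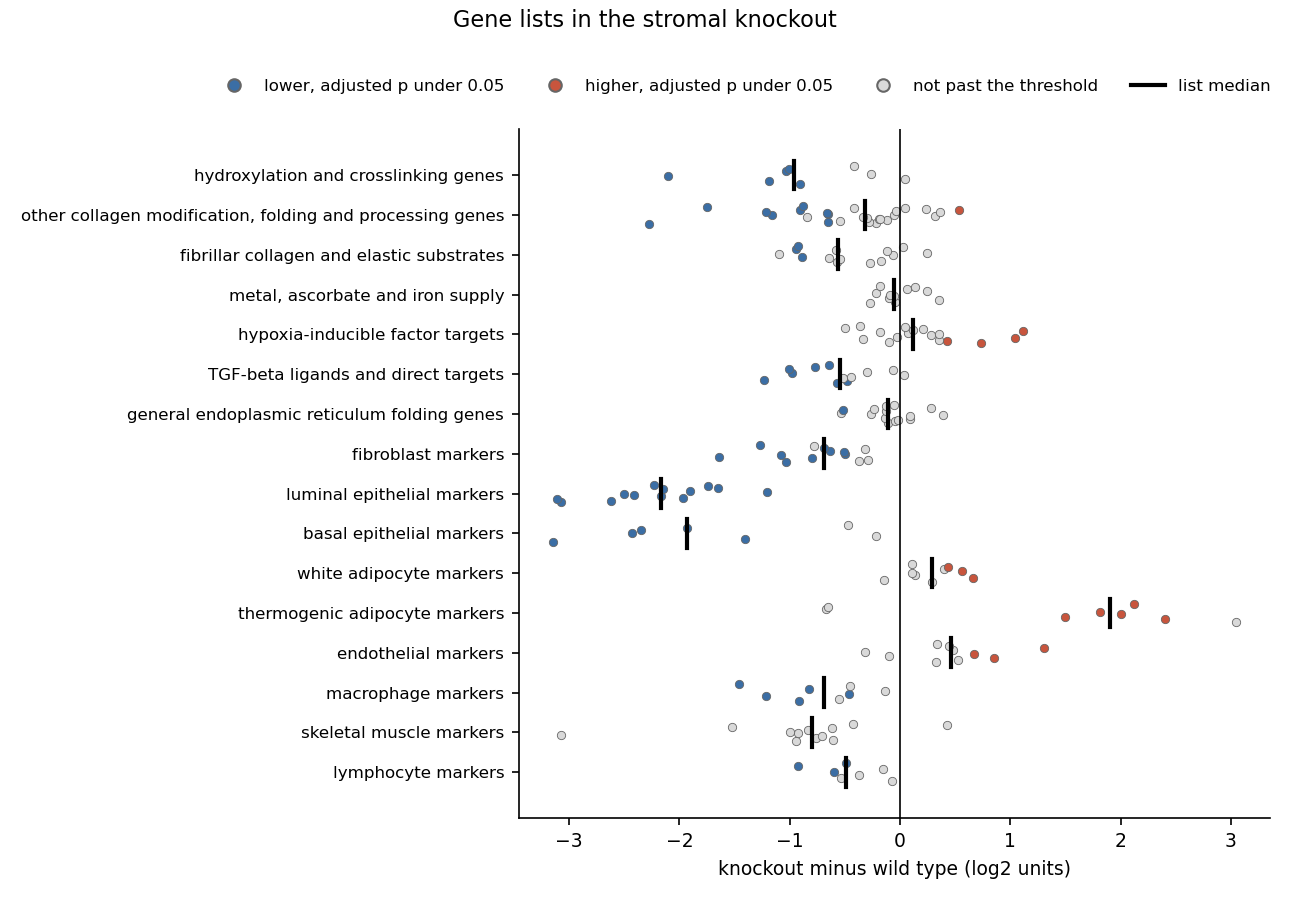
The log2 difference, knockout minus wild type, for each gene of the 16 lists (circles, blue where lower and red where higher at a limma adjusted p under 0.05, grey otherwise), with a black bar at the list median. The 8 hydroxylation and crosslinking genes have a median of -0.96. Fibroblast and macrophage markers have medians of -0.69, and skeletal muscle markers one of -0.80. Basal and luminal epithelial markers have medians of -1.93 and -2.16, and hypoxia-inducible factor targets one of 0.12.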

How the data were processed

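Total RNA, 400 ng per sample, from whole inguinal glands was hybridised to Affymetrix arrays, per the labels' protocols. The authors deposited log2 expression values for every probe set of each array. RMA and limma are named, without versions, per the submitters' processing notes. Base 2 is assumed because RMA works in it, and no chip definition is named. Of 41345 probe sets, 23521 carry 1 gene symbol, 1814 carry several and 16010 are unnamed here. Genes were read from the single-symbol probe set with the highest mean. The number of arrays limits the precision.

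The group comparison used limma 3.58.1 (lmFit, then eBayes with no trend) under R 4.3.3. Within-array differences were tested by exact permutation over arrays. The steps were tested on simulated data. Alternatives were leaving out genes below the 33rd percentile of level, 2 intensity trends, array weights, 2 normalizations, the mean of probe sets, every probe set, a replicate block, a threshold of 0.1 and each array left out. The labels do not say whether the replicate numbers pair the samples, and the main fit did not pair them.

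The members and the gene lists were chosen with earlier results of these data known. Besides the members, Mmp14, Twist2, Col1a1, Col1a2 and Col3a1, the text names up to 4 called genes in each direction per pathway list, and for marker lists a gene only where it defines a cell type. P4hb, Bmp1, Adamts14, Sec24d, Creb3l1, P3h1, P3h2, Crtap, Ppib, Loxl4, Colgalt1, Eln, Elovl3 and Dio2 were named after their values had been seen. Promoters come from RefSeq tables of GRCm38.p6.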

Additional observations from a re-analysis of the deposited data

How the results depend on the processing

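The calls of P4ha1, P4ha2, Plod2, Loxl1 and Loxl3 held in all 14 alternatives that refit the genes, with the highest limma adjusted p at 0.0488, for Loxl3 without knockout 2. The count of members that fell was 5 in all 16 alternatives, the looser threshold of 0.1 and the test of every probe set included, and 0 rose. Plod1 changed sign when arrays were left out, between -0.075 and 0.22, and did not pass in any alternative. Lox ranged from -0.36 to -0.08 and Serpinh1 from -0.56 to -0.23, and neither passed in any. With arrays centred on their medians, the median over all genes was 0.22 in place of 0.03, with P4ha1 at -0.72, Lox at -0.08 and Plod1 at 0.23, and Crtap (0.00052), Ppib (0.0095), Eln (0.072) and Hspa5 (0.082) changed sign without passing. Eln ranged from -0.26 to 0.031 with single arrays left out. All-gene calls went from 1121 higher and 1596 lower to 3155 higher and 1178 lower. From 2717 with all arrays, they went to 1490 when wild type 1 was left out, 1671 for wild type 3, 1800 for knockout 1 and 1497 for knockout 2. Same-numbered arrays did not deviate together, with correlations of -0.03, -0.05 and -0.03 over genes, so the numbers are not read as pairs. With the replicate block 5 members fell, Plod2 had a limma adjusted p of 0.00793 and Loxl1 one of 0.0434, and 1923 genes were called.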

Other observations

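The hydroxylases need iron and ascorbate and the lysyl oxidases need copper. Of 11 measured genes for the supply of these cofactors, 0 rose and 0 fell in the limma test. Among all genes 5.05% rose and 7.20% fell, so 0 of 11 is near that share and is not read as a lack of change. In this list 2 genes had an unadjusted p under 0.05, and the median difference was -0.06. Atp7a, the copper pump that loads lysyl oxidases in the secretory pathway, read 7.29, 7.34 and 7.40 in wild type and 7.09, 7.16 and 6.96 in the knockout, a difference of -0.27 ± 0.11 (limma adjusted p = 0.178). Atox1, the chaperone that hands copper to such pumps, read 7.54, 7.50 and 7.37 in wild type and 7.73, 8.11 and 7.63 in the knockout, a difference of +0.35 ± 0.15 (limma adjusted p = 0.188). With arrays centred on their medians Atox1 rose by 0.54 (limma adjusted p = 0.0485), the only 1 of 14 alternatives in which it passed. That setting moved the median over all genes from 0.03 to 0.22.

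Of 15 measured general folding genes of the endoplasmic reticulum, 1 fell and 0 rose, against 7.20% and 5.05% of all genes. Their differences ran from -0.54 for Sdf2l1 (limma adjusted p = 0.133) to 0.39 for Dnajb9 (0.0947), both co-chaperone genes, with a median of -0.10. Hspa5, the main chaperone of that compartment, differed by -0.10 ± 0.11 (limma adjusted p = 0.611). Creld2, a stress-induced protein of the same compartment, fell by 0.51 ± 0.13 (limma adjusted p = 0.0446), a call lost when any 1 array was left out (0.0531 to 0.134). With either intensity trend, or with arrays centred on their medians, Dnajb9 rose (limma adjusted p 0.0290 to 0.0301). Atp7a, Atox1, Sdf2l1, Dnajb9 and Hspa5 were named after their values had been seen.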
